A study of Mus musculus with 9 samples.

Results

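The genes described here are those of translation initiation: every gene whose symbol in the platform annotation begins with Eif and a digit, apart from the eIF2 kinase genes (Eif2ak) and the sex-linked pair Eif2s3x and Eif2s3y. The rule uses names only, and it found 41 genes among 18193 with a probe set of 1 symbol. Other initiation factor genes, core subunits among them, were not analysed here, so counts by role cover part of each complex. Of the 41 genes, 40 passed the filter on dim signals and were tested among 12347 genes. The remaining gene, Eif4a3, was carried by a single probe set with signals of 0.952 to 10.6 on the 9 arrays. Expression was measured on Affymetrix arrays in granulocyte-macrophage progenitors (GMPs), the marrow cells that give rise to neutrophils and monocytes, in 3 groups of 3 arrays called wild type, heterozygous and null for Dicer1.

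All groups shared the same construction. Fetal liver cells of embryonic day 13.5 donors carrying Cebpa-Cre, the R26-LSL-Eyfp reporter and wild-type or floxed Dicer1 alleles were injected into C57BL/6 recipients that were 6 to 8 weeks old and had received 8.5 Gy of radiation. EYFP-positive GMPs were sorted from recipient marrow 6 to 10 weeks later, so each array holds only cells in which Cre had acted on the reporter. The Cre is driven by Cebpa, a gene of myeloid-committed cells, and 1 fetal liver typically served 2 recipients. The labels do not say which samples came from separate livers, so p-values measure the spread between these samples, which may be technical in part. Dicer1, the ribonuclease that makes mature microRNAs, read 223 to 244 on wild-type arrays, 169 to 201 on heterozygous arrays and 97.2 to 115 on null arrays (null minus wild type -1.07 in log2 units, SE 0.11, limma adjusted p = 1.88e-05). Where its probes lie relative to the floxed part of the gene was not examined here.

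The 10 GMP markers were all above the filter, with summed signals of 24800 to 27800 in wild type, 25600 to 29700 in heterozygous and 25500 to 27600 in null cells. Mpo, Ctsg and Prtn3 carried this sum. Irf8 was 563 to 718, 774 to 866 and 423 to 566 in the same order. Without overlap, Cd34 was lower in null than in wild type (726 to 769 against 791 to 897). Fcgr3 (1457 to 1686 against 1137 to 1278), Kit and Ctsg (8657 to 9107 against 7806 to 8640) were higher there, and the other GMP markers overlapped between these groups. Of all genes tested, 33% did not overlap in this comparison, 14.1% higher and 19% lower. In the order wild type, heterozygous and null, B lymphoid markers summed to 179 to 211, 178 to 203 and 150 to 188 (1 of 5 measured genes above the filter). T and NK markers summed to 28.4 to 38.8, 24.1 to 30.3 and 19.7 to 26 (1 of 5), and macrophage markers to 112 to 165, 174 to 201 and 110 to 158 (3 of 4). Erythroid markers summed to 147 to 868, 257 to 355 and 140 to 274 (4 of 5), and megakaryocyte markers to 97.7 to 265, 73.6 to 103 and 73 to 111 (3 of 4). Late neutrophil markers summed to 2510 to 4270, 1910 to 3070 and 1640 to 4820 (5 of 5), a sum carried by S100a8. Among them Ltf was 76.5 to 174 in wild type, 12.9 to 26.8 in heterozygous and 13.4 to 19.9 in null cells, and Ngp was 316 to 784, 71.8 to 140 and 51.9 to 149. Both were lower in null than in wild-type cells by limma (adjusted p = 8.01e-05 and 0.00109), Mmp8 had the same order without passing, and Camp and S100a8 overlapped. Mast cell, basophil and eosinophil markers summed to 3030 to 4520, 2860 to 3160 and 3890 to 5490 (5 of 5). Of these Fcer1a was 106 to 453, 8.26 to 16.9 and 28.6 to 42.6, lower in null than in wild type (adjusted p = 0.000774), while Epx and Prg2 were higher there (0.00323 and 0.0274). Wild-type replicate 2 stood apart, with the erythroid gene Car1 at 631 and the platelet gene Pf4 at 189, against 43.1 to 188 and 17.7 to 41 on the other 8 arrays. Its Xist signal was 2610 and its Eif2s3y signal 1.13, where the other arrays had 16.4 to 30.2 and 622 to 859, although the labels call every sample female. The part of these differences in the results below was not tested, and calls among the initiation factor and named partner genes that were lost without wild-type replicate 2 are given where they occur. In sorted bulk samples such as these, fewer cells of a type and less RNA per cell cannot be told apart.

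Translation initiation in eukaryotes begins when eIF2 brings the initiator tRNA to the small ribosomal subunit, together with eIF1, eIF1A, eIF3 and eIF5. The eIF4F complex (the cap-binding protein eIF4E, the helicase eIF4A and a scaffold of the eIF4G family) recruits this assembly to the capped end of an mRNA, and it scans to the start codon before eIF5B joins the large subunit. MicroRNAs repress translation and shorten mRNA lifetime, and eIF4A2, the eIF4E homolog eIF4E2 and the eIF4E-binding transporter encoded by Eif4enif1 have each been studied as partners of that repression.

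Most initiation factor genes differed little between genotypes. In null against wild-type GMPs, 2 of 40 rose (Eif4e and Eif2b3) and 5 fell (Eif1b, Eif1ad, Eif3k, Eif4a2 and Eif6) by limma at an adjusted p under 0.05, where 15.7% of all genes tested passed, 7.6% higher and 8.09% lower. In null against heterozygous GMPs, 1 of 40 rose (Eif4e) and 7 fell (Eif1b, Eif1ad, Eif3f, Eif3k, Eif4a2, Eif5a and Eif6), where 14.3% of all genes passed, 6.84% higher and 7.49% lower. Among members 5% and 2.5% were called higher in these comparisons, below the shares of all genes, and 12.5% and 17.5% lower, above them, on counts of 7 or fewer genes and with no test of the difference. The members were also brighter as a group, with a median signal per array of 676 to 918 against 87.7 to 95.3 for all genes tested. No background matched for signal was used, here or for the sizes below. Whether the shares or sizes depend on signal was not tested. In heterozygous against wild-type GMPs 0 of 40 passed by limma, and 1.39% of all genes passed, 0.697% higher and 0.697% lower. An unadjusted p under 0.05 was found there for 4 of 40 members and for 1594 of all 12347 genes. The first 2 comparisons share the null arrays, so their calls are not independent of each other.

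The size of the differences was narrow. In null against wild type the log2 differences of the 40 genes ran from -0.62 to 0.41 with a median of -0.10, against a median of -0.04 for all genes tested, and 30 lay below 0. In null against heterozygous they ran from -0.77 to 0.33 with a median of -0.07, against -0.03, and 25 lay below 0. In heterozygous against wild type they ran from -0.28 to 0.37 with a median of -0.005, against -0.008, and 22 lay below 0. Of all 12347 genes tested, 6921, 6712 and 6416 lay below 0 in these 3 comparisons, in the same order. For each of the 33 genes not called in null against wild type, the 95% interval of the difference lay inside a 1.5-fold change in either direction (0.58 on the log2 scale). The same held for 38 of 40 in heterozygous against wild type, Eif4ebp1 and Eif5a2 being the exceptions, and for 31 of 32 in null against heterozygous, with Eif4ebp1 the exception. On the arrays themselves, the median signal of the 40 genes was 676 to 760 in null, 862 to 890 in heterozygous and 839 to 918 in wild-type cells. The null arrays did not overlap the other 6 in this median, and the heterozygous range lay inside the wild-type range. This median rests on the genes that rank in the middle of each array. Its gap is therefore not the median change per gene, which was -0.10 and -0.07. The median over all genes tested showed the same split, at 87.7 to 89.5 on null arrays and 92.1 to 95.3 on the other 6.

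**Figure D1:**
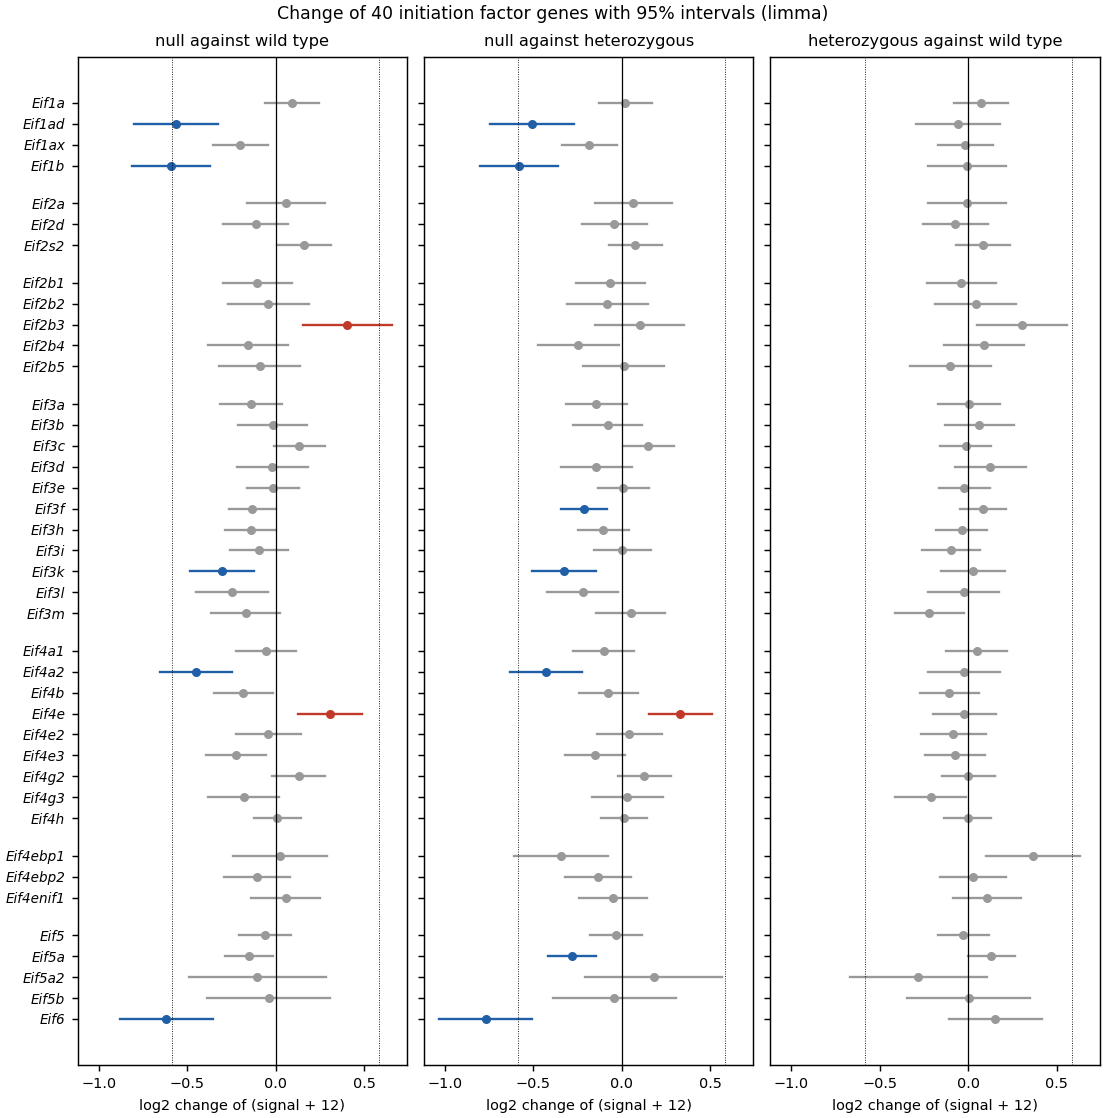
Log2 difference of (signal + 12) for the 40 tested genes, grouped by role from top to bottom, in null against wild type (left), null against heterozygous (middle) and heterozygous against wild type (right). Points are limma estimates and lines 95% intervals, red marks a called rise and blue a called fall, and dotted lines mark a 1.5-fold change; the right panel has 0 called genes, and the called falls of the left and middle panels are led by Eif6.

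Promoter sequences are shown for 6 of the 9 genes called in any comparison, to set genes with the E-box CACGTG, a palindrome bound by MYC-type factors, beside genes without it. In the RefSeq table of GRCm38.p6, 31 of the 40 genes had a window of 250 bases before to 50 after a transcript start. CACGTG stood in a window of 5 of the 7 called genes with one (Eif1b, Eif3f, Eif3k, Eif4e and Eif5a) and of 4 of the 24 uncalled genes (Eif3a, Eif4a1, Eif4h and Eif5a2). Among all genes tested that have a window, 11.6% held it, and 7.15% of all windows did. Genes with several annotated starts, such as Eif5a, have more windows to hold a match. The 100 bases before the start are printed 5′ to 3′ on the gene's strand with CACGTG in capitals, and the last 2 genes, which fell in null cells, have none in their windows.
Eif1b, chr9:120492506-120492605, plus strand: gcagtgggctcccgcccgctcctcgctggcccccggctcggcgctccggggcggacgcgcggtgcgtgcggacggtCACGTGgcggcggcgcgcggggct
Eif3k, chr7:28981889-28981988, minus strand: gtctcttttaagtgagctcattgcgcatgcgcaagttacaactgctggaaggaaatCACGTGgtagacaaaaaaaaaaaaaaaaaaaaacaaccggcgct
Eif3f, chr7:108934315-108934414, plus strand: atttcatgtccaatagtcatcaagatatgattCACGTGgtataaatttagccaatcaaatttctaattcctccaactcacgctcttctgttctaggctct
Eif4e, chr3:138527168-138527267, plus strand: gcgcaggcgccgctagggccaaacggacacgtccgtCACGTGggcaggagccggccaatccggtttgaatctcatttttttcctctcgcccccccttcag
Eif4a2, chr16:23107368-23107467, plus strand: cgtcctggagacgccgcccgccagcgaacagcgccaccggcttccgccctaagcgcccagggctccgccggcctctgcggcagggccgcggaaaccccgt
Eif1ad, chr19:5366713-5366812, plus strand: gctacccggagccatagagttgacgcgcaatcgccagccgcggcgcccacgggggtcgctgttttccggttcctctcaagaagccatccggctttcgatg

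The E-box began 24, 44, 68 and 64 bases before the start in Eif1b, Eif3k, Eif3f and Eif4e. The Eif4e window also held CACGTG 228 bases before its start, and it lies downstream of another annotated start. CACGTG reads the same on both strands, and a pair of other motifs, neither of which contains it, was searched on both. The ETS motif CCGGAAG stood in 3 of the 7 called and 11 of the 24 uncalled genes, and in 19.5% of all genes tested. The CCAAT box, CCAAT, stood in 4 of 7 and 8 of 24, against 42.6%. These motifs were chosen with the calls known, and the matches describe letters in a window, not binding.

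Among the genes named for eIF1 and eIF1A, Eif1b and Eif1ad fell in null cells. Eif1ad was grouped here by its name, and a part in start codon selection was not examined. Eif1b encodes a close relative of eIF1, the factor that holds the scanning ribosome open until a start codon is found. Its signal was 922, 914 and 876 on wild-type arrays, 993, 887 and 827 on heterozygous arrays and 563, 704 and 535 on null arrays. All 3 null values lay below the other 6, while the wild-type and heterozygous values overlapped. The fall was -0.59 against wild type (SE 0.10, limma adjusted p = 0.00161) and -0.58 against heterozygous cells (adjusted p = 0.00215).

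Eif1ad encodes a small protein with an eIF1A-like domain. It read 339, 376 and 332 in wild type, 360, 305 and 340 in heterozygous and 196, 254 and 249 in null cells. The null values again lay below all others, with a fall of -0.56 against wild type (SE 0.11, limma adjusted p = 0.00363) and -0.51 against heterozygous cells (adjusted p = 0.00763). Its other probe set pointed the same way but did not pass (-0.49, adjusted p = 0.13, and -0.45, adjusted p = 0.174). Eif1b and Eif1ad passed against both groups under each of the 21 alternatives tried. Eif1b has a single probe set, so averaging probe sets left its values as they were.

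The eIF1A genes Eif1a and Eif1ax did not pass, and for Eif1ax this depended on the processing. Eif1a read 1005 to 1101 in wild type, 1073 to 1145 in heterozygous and 1101 to 1130 in null cells. Eif1ax, which is X-linked, read 1986 to 2112 in wild type, 1958 to 2118 in heterozygous and 1649 to 1887 in null cells, a difference of -0.20 from wild type (SE 0.07, limma adjusted p = 0.0772). That difference passed after quantile (-0.22, adjusted p = 0.0348) or cyclic loess normalization (-0.22, 0.0379). Wild-type replicate 2, which has the Xist signal, lay inside the range of the other wild-type arrays at 2045. A dimmer probe set of Eif1ax moved the other way. It read 65.5, 57.2 and 51.7 in wild type, 52, 45.6 and 49.2 in heterozygous and 95, 79.1 and 98.2 in null cells, a rise of 0.55 against wild type and 0.75 against heterozygous cells (limma over probe sets, adjusted p = 0.0163 and 0.00329). With the probe sets averaged, Eif1ax was higher in null than in heterozygous cells by 0.27 (adjusted p = 0.0326), against -0.18 from the probe set that stands for the gene, so no single direction holds for it.

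Genes of eIF2 and of its exchange factor eIF2B gave 1 call. Eif2s2, the beta subunit of the initiator tRNA carrier, read 3121 to 3580 in wild type, 3372 to 3580 in heterozygous and 3505 to 3817 in null cells, and its 0.16 difference in null against wild type did not pass (adjusted p = 0.145). Eif2a and Eif2d, which can deliver initiator tRNA outside the eIF2 route, had differences of 0.06 and -0.11 in the same comparison. Of the 5 subunits of eIF2B, which recharges eIF2 with GTP, Eif2b1, Eif2b2, Eif2b4 and Eif2b5 lay between -0.15 and -0.04. A dim other probe set of Eif2b5 fell by 0.52 (limma over probe sets, adjusted p = 0.0497), at 15.2 to 20.1 in null against 27.9 to 34.1 in wild-type cells. With its probe sets averaged, Eif2b5 was called lower in null against wild type.

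Eif2b3, the gamma subunit, was the eIF2B gene called. It read 159, 147 and 121 in wild type, 183, 172 and 178 in heterozygous and 194, 169 and 213 in null cells. Both mutant groups lay above all wild-type values and overlapped each other. The rise in null against wild type was 0.41 (SE 0.12, limma adjusted p = 0.032), and the heterozygous difference of 0.30 did not pass (adjusted p = 0.275). The call was lost without null replicate 1 (adjusted p = 0.0806) or 3 (0.133), and likewise on leaving out replicate 2 (0.0524) or 3 (0.132) of the wild type. It was also lost without the intensity trend in the variance (0.0646) or with only the 2 groups fitted (0.0613).

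Of the 11 eIF3 genes, which encode the largest initiation factor and its docking surface on the small subunit, 10 lay below 0 in null against wild type, with a median of -0.13, and 1 (9.09%) passed. Of all 12347 genes tested, 6921 lay below 0 in that comparison, with a median of -0.04, and 8.09% were called lower. Eif3e was flat, at 5850 to 6470 in wild type, 5882 to 6128 in heterozygous and 5671 to 6440 in null cells (null against wild type -0.01, adjusted p = 0.922). Eif3k, a small peripheral subunit, read 949, 923 and 917 in wild type, 1028, 920 and 898 in heterozygous and 685, 822 and 756 in null cells. Its null values lay below the other 6, and it fell by 0.30 against wild type (SE 0.08, limma adjusted p = 0.0274) and by 0.33 against heterozygous cells (adjusted p = 0.019). The call against wild type was lost without any 1 of the wild-type replicates 1, 2 and 3 (adjusted p = 0.0755, 0.0563 and 0.0603) or without null replicate 1 or 3 (0.111 and 0.069). The call against heterozygous cells was lost without null replicate 1 or 3 (0.0826 and 0.0534) or heterozygous replicate 1 (0.0834). Without the intensity trend neither passed (0.087 and 0.0727).

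Eif3f read 4025, 4073 and 4246 in wild type, 4477, 4364 and 4252 in heterozygous and 3661, 3877 and 3734 in null cells. Its 3 groups did not overlap, with heterozygous cells highest and null cells lowest. The fall against heterozygous cells passed (-0.22, SE 0.06, limma adjusted p = 0.0289) and the difference from wild type did not (-0.13, adjusted p = 0.171). That call was lost without null replicate 1 or 3 (adjusted p = 0.0938 and 0.0828), without heterozygous replicate 1 or 2 (0.0889 and 0.0909), with no filter on dim genes (0.0719), or without the intensity trend (0.132). Eif3l, which with Eif3k forms a side module of the complex, was at 955 to 1056 in null cells, below the 1069 to 1384 of wild type and the 1113 to 1256 of heterozygous cells, but its -0.25 against wild type did not pass (adjusted p = 0.0922). It passed after quantile normalization (0.0446) or without wild-type replicate 1 (0.0406).

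In the cap-binding complex, the helicase gene Eif4a2 fell while its close relative Eif4a1 did not pass. Eif4a2 read 2178, 2126 and 2183 in wild type, 2236, 2038 and 2112 in heterozygous and 1694, 1762 and 1316 in null cells. The null values lay below all others, null replicate 3 being the lowest. It fell by 0.45 against wild type (SE 0.10, limma adjusted p = 0.00559) and by 0.43 against heterozygous cells (adjusted p = 0.00852, and 0.0553 without the intensity trend). Eif4a1 read 3314 to 4045 in wild type, 3475 to 3941 in heterozygous and 3379 to 3522 in null cells, a difference of -0.05 from wild type (adjusted p = 0.715). Whether the change of Eif4a2 differs from that of Eif4a1 was not tested. A dimmer probe set of Eif4a1 fell by 0.35 against heterozygous cells (limma over probe sets, adjusted p = 0.0147).

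Eif4e, the cap-binding protein, gave opposite answers by probe set. The probe set with the highest signal, which stands for the gene, read 919, 936 and 812 in wild type, 809, 894 and 922 in heterozygous and 1052, 1094 and 1161 in null cells. The null values lay above the other 6, with a rise of 0.31 against wild type (SE 0.08, limma adjusted p = 0.0226) and 0.33 against heterozygous cells (adjusted p = 0.0172). The next read 498, 530 and 515 in wild type, 536, 555 and 504 in heterozygous and 400, 390 and 435 in null cells. There the null values lay below the other 6, a fall of 0.33 and 0.37 (limma over probe sets, adjusted p = 0.0204 and 0.0114). The third read 115 to 127 in wild type, 115 to 136 in heterozygous and 132 to 150 in null cells (0.21 against wild type, adjusted p = 0.24), and the dimmest one differed by -0.30 (adjusted p = 0.384).

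When its probe sets were averaged, Eif4e had differences of -0.03 and -0.01 and passed in neither comparison (limma adjusted p = 0.869 and 0.975). Leaving out null replicate 3 also ended both calls (0.0929 against wild type, 0.0726 against heterozygous cells). The first was lost as well when replicate 3 of the wild type was left out (0.0974), and the second when heterozygous replicate 1 was (0.0751). Neither passed without the intensity trend (0.08 and 0.0694). These arrays therefore give no single direction for Eif4e mRNA. Where its probes lie along the transcript was not used here.

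The remaining genes around eIF4F did not pass. Eif4g2, a scaffold that lacks the eIF4E-binding part of its relatives, read 5872 to 6762 in wild type, 6272 to 6455 in heterozygous and 6521 to 7304 in null cells (0.13 against wild type, adjusted p = 0.237). After quantile normalization it passed against wild type and heterozygous cells (0.0418 and 0.0311). Eif4h, a cofactor of the helicase, differed by 0.01. Eif4b, another cofactor, was at 1173 to 1207 in null cells against 1320 to 1419 in wild type (-0.18, adjusted p = 0.134), and 1 of its other probe sets fell by 0.30 (limma over probe sets, adjusted p = 0.0413). Eif4e2, the eIF4E homolog linked to repression, read 657 to 756 in wild type, 608 to 698 in heterozygous and 644 to 716 in null cells (null against wild type -0.04, adjusted p = 0.807).

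Inhibitors of eIF4E gave 0 calls by limma in the 3 comparisons, with an unadjusted p under 0.05 for Eif4ebp1 in 2 of them. Eif4ebp1 encodes a binding protein that blocks eIF4E until mTOR phosphorylates it. It read 484, 575 and 414 in wild type, 739, 585 and 579 in heterozygous and 457, 537 and 493 in null cells. The heterozygous values lay above all others and the wild-type and null values overlapped. Heterozygous cells differed from wild type by 0.37 (SE 0.12, limma adjusted p = 0.205), and null cells differed from heterozygous cells by -0.34 (adjusted p = 0.0809), which passed when only those 2 groups were fitted (0.0495) or without wild-type replicate 2 (0.047). Eif4ebp2 read 596 to 695, 622 to 661 and 550 to 629 in wild type, heterozygous and null cells. Eif4enif1, the transporter gene, read 273 to 295, 279 to 320 and 280 to 302 in the same order.

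Of the genes that act around subunit joining, Eif6 had the largest difference of the 40 genes. It encodes a factor that binds the large ribosomal subunit, takes part in its maturation and keeps it from joining early. Its signal was 229, 239 and 263 in wild type, 311, 252 and 257 in heterozygous and 136, 147 and 184 in null cells. All null values lay below the other 6. The fall was -0.62 against wild type (SE 0.12, limma adjusted p = 0.00398) and -0.77 against heterozygous cells (adjusted p = 0.00109). Its other, dimmer probe set did not follow, at 98.8, 88 and 70 in wild type, 104, 96.1 and 81.3 in heterozygous and 87.9, 70.5 and 103 in null cells. With the 2 probe sets averaged, the difference from wild type was -0.30 and did not pass (adjusted p = 0.121).

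Eif5a encodes a hypusine-carrying factor that helps ribosomes through difficult peptide bonds. It read 4329, 3988 and 4245 in wild type, 4677, 4463 and 4626 in heterozygous and 3634, 3906 and 3771 in null cells. The 3 groups did not overlap, in the order heterozygous, wild type, null, as for Eif3f. The fall against heterozygous cells was -0.28 (SE 0.06, limma adjusted p = 0.00852, and 0.0681 without the intensity trend), while the difference from wild type of -0.15 did not pass (adjusted p = 0.127). It did pass after cyclic loess normalization (0.0441) or with its probe sets averaged (0.0472). The other probe set showed the same order, at 679, 838 and 845 in wild type, 1183, 978 and 1004 in heterozygous and 587, 560 and 695 in null cells (null against heterozygous -0.77, limma over probe sets, adjusted p = 0.000783).

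Eif5, which triggers GTP hydrolysis by eIF2, differed by -0.06 in null against wild type and -0.03 in null against heterozygous. In the latter 2 of its other 4 probe sets fell, by 0.25 and 0.30 (limma over probe sets, adjusted p = 0.0464 and 0.0317). Eif5b, the joining factor, differed by -0.04 in both, and its dimmest probe set rose by 0.80 against heterozygous cells (adjusted p = 0.0205), from 66.9, 59.2 and 41.3 to 94.7, 86.8 and 138. Eif5a2, the paralog of Eif5a, was dim, at 24.1 to 40.3 in wild type, 20.4 to 23.3 in heterozygous and 24 to 30.6 in null cells.

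**Figure D2:**
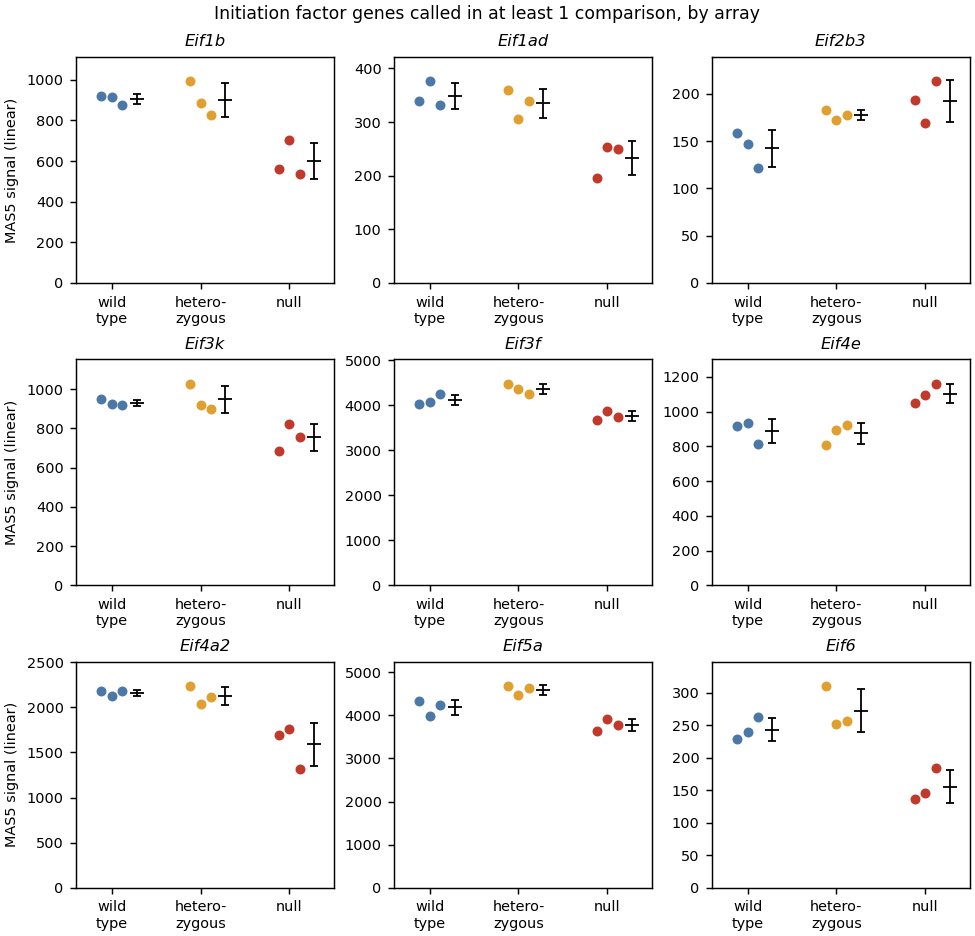
MAS5 signal on each array for the 9 genes called in at least 1 comparison, by genotype, on linear axes that start at 0. Dots are single arrays and the black marks the mean with its SD (n = 3); in each gene but Eif2b3 all null arrays lie outside the range of the other 6, and in Eif2b3 both mutant groups lie above wild type.

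Probe sets of the same gene were a source of disagreement beyond these cases. Of the 40 genes, 29 had at least 1 further probe set above the filter, 64 in all. The called genes Eif1b, Eif2b3, Eif3f, Eif3k and Eif4a2 had a single probe set, so such disagreement could not show for them. In null against wild type 42 of the 64 had the sign of the probe set that stands for the gene, and 4 passed on their own (limma over all probe sets above the filter), 2 of them in the opposite direction (Eif4e and Eif1ax). In null against heterozygous 40 of 64 had the same sign, and 7 passed, 3 of them in the opposite direction (Eif4e, Eif1ax and Eif5b). In heterozygous against wild type 41 of 64 had the same sign and 0 passed, as for the probe sets that stand for the genes. By gene, 15.7%, 14.3% and 1.39% of all genes tested passed in these 3 comparisons, in the same order. The share of all probe sets that passed was not counted, so these calls have no background of their own kind.

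**Figure D3:**
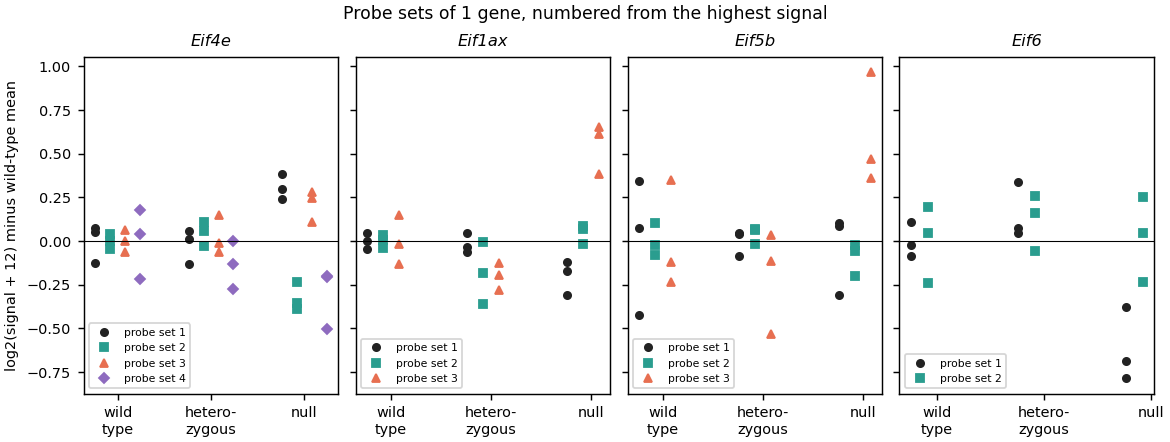
Log2(signal + 12) on each array minus the wild-type mean of the same probe set, for the probe sets above the filter of Eif4e, Eif1ax, Eif5b and Eif6, numbered from the highest signal. In null cells the probe sets of Eif4e part in both directions, probe set 3 of Eif1ax and of Eif5b lies above wild type, and only the brighter probe set of Eif6 is lower.

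Heterozygous cells gave few differences from wild type in this gene group, as among all genes, where 1.39% passed by limma. Of all 12347 genes tested, 1594 had an unadjusted p under 0.05 in limma. The 4 genes with an unadjusted p under 0.05 in limma against wild type were Eif4ebp1 (0.37) and Eif2b3 (0.30), which were higher, and Eif3m (-0.22) and Eif4g3 (-0.21), which were lower, with adjusted p-values of 0.205 to 0.348. Values of the 2 groups did not overlap for 17.5% of the 40 genes (4 higher and 3 lower), against 18.3% of all genes (8.48% higher and 9.78% lower). Null and wild-type values did not overlap for 42.5% of the members (4 higher and 13 lower), against 33% of all genes (14.1% and 19%). Null and heterozygous values did not overlap for 42.5% (again 4 and 13), against 32.7% (14.7% and 18%).

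A list of 39 partner genes from other steps of translation and from the signalling that controls eIF2 and eIF4F, of which 37 were tested, had 5 higher and 5 lower in null against wild type, 13.5% each way beside 7.6% and 8.09% of all genes. In null against heterozygous 2 were higher and 3 lower, 5.41% and 8.11% beside 6.84% and 7.49%, and in heterozygous against wild type 1 was higher, 2.7% beside 0.697%. With any 1 array left out, the counts were 3 to 5 higher and 2 to 5 lower in null against wild type (5 and 2 without wild-type replicate 2), and 1 to 3 higher and 2 to 4 lower in null against heterozygous. The median differences were -0.02, -0.01 and 0.01. The named ones are those with the smallest p in each comparison.

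Paip1, which binds the poly(A)-binding protein and eIF4A and stimulates initiation, read 163, 192 and 213 in wild type, 473, 585 and 591 in heterozygous and 594, 661 and 636 in null cells. It rose by 1.68 in null against wild type (SE 0.11, limma adjusted p = 6.2e-07) and by 1.48 in heterozygous against wild type, more than any initiation factor gene changed in either comparison. Pabpc4, a poly(A)-binding protein, read 445, 391 and 435 in wild type, 476, 457 and 507 in heterozygous and 332, 351 and 344 in null cells. It fell by 0.47 against heterozygous cells (adjusted p = 0.00255). Its fall of 0.30 against wild type (adjusted p = 0.0305) was lost without null replicate 1, 2 or 3 (0.0891, 0.0501 and 0.0769) or wild-type replicate 1 or 3 (0.0981 and 0.0933). This call was also lost without the intensity trend (0.071), with only the 2 groups fitted (0.0512), or with probe sets averaged (0.0573).

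Mknk2, a kinase that phosphorylates eIF4E, read 913, 1055 and 1125 in wild type, 1232, 1259 and 1294 in heterozygous and 1559, 1377 and 1524 in null cells. The 3 groups did not overlap, and the rise in null against wild type was 0.53 (SE 0.09, limma adjusted p = 0.00102). With its probe sets averaged it was 0.20 and did not pass (0.209). Ddx3x, an X-linked helicase of scanning, was 3476 to 3883 in null cells against 2381 to 3162 in wild type and 2568 to 2683 in heterozygous cells (0.42 against wild type, adjusted p = 0.00605).

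The elongation factor gene Eef2 and the gene of the kinase that inactivates its protein, Eef2k, moved in opposite directions in null cells. Eef2 read 1227, 1180 and 1317 in wild type, 1320, 1279 and 1376 in heterozygous and 971, 905 and 951 in null cells, a fall of 0.39 against wild type (SE 0.07, limma adjusted p = 0.00261) and 0.49 against heterozygous cells (adjusted p = 0.000721). Eef2k read 666, 778 and 714 in wild type, 643, 731 and 784 in heterozygous and 843, 923 and 997 in null cells, a rise of 0.35 against both (adjusted p = 0.0232 and 0.0237). The rise against wild type was lost without null replicate 2 or 3 (0.0554 and 0.101) or wild-type replicate 1 or 3 (0.0869 and 0.0623). That against heterozygous cells was lost without null replicate 2 or 3 (0.0562 and 0.103) or heterozygous replicate 1 or 2 (0.105 and 0.0612). Neither rise of Eef2k passed without the intensity trend (0.08 and 0.0827). With probe sets averaged, Eef2 passed against neither group (-0.19, 0.26, and -0.17, 0.321) and Eef2k not against wild type (0.0839).

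**Figure D4:**
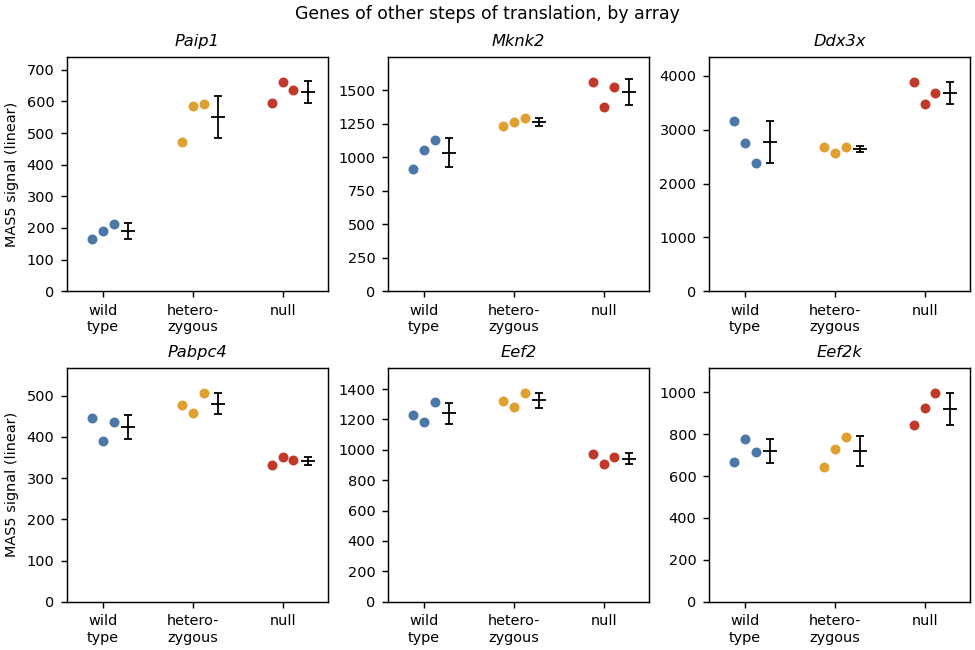
MAS5 signal on each array for 6 partner genes by genotype, on linear axes that start at 0, with the mean and SD in black (n = 3). Paip1 is higher in both mutant groups than in wild type, Pabpc4 and Eef2 are lowest in null cells, and Mknk2, Ddx3x and Eef2k are highest there.

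Ribosomal protein genes, the other large group of the translation machinery, give a scale for these counts. Of 46 tested genes with Rpl or Rps symbols, 15 (32.6%) fell and 0 rose by limma in null against wild type (25 with an unadjusted p under 0.05 in either direction), with a median of -0.21. Of 76 mitochondrial ones (Mrpl and Mrps) 19 (25%) fell and 2 (2.63%) rose, with a median of -0.22. Among all genes tested 8.09% fell and 7.6% rose, and 3578 of 12347 had an unadjusted p under 0.05. Against heterozygous cells 15 of 46 (32.6%) fell and 0 rose by limma (30 with an unadjusted p under 0.05), and 32 of 76 (42.1%) fell and 1 (1.32%) rose, with medians of -0.23 and -0.31. There 7.49% of all genes fell and 6.84% rose, and 3442 had an unadjusted p under 0.05. These counts moved with single arrays. In null against wild type they were 5 to 22 falls of 46 and 11 to 20 of 76 with 1 array left out, both lowest without null replicate 3, and 12 and 12 without wild-type replicate 2. In null against heterozygous they were 8 to 19 (lowest without null replicate 3 or heterozygous replicate 1) and 10 to 33 (lowest without heterozygous replicate 1). They also depended on the intensity trend in the variance. Without it 4 of 46 and 14 of 76 fell in null against wild type, and 6 and 14 in null against heterozygous. The initiation factor genes had 5 and 7 falls of 40 (12.5% and 17.5%). Their medians of -0.10 and -0.07 lay between those of the ribosomal protein groups and those of all genes at -0.04 and -0.03. The difference between the groups was not tested.

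**Figure D5:**
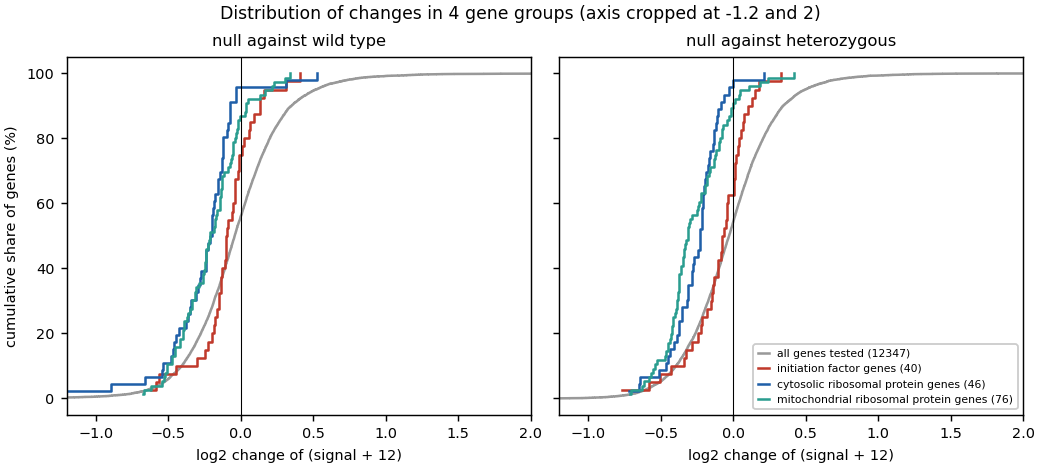
Cumulative share of genes, in percent, against the log2 difference of (signal + 12) in null against wild type (left) and null against heterozygous (right), for all genes tested, initiation factor genes and ribosomal protein genes of the cytosol and of mitochondria. The median of the initiation factor genes lies at -0.10 and -0.07, and those of the ribosomal protein groups between -0.21 and -0.31.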

How the data were processed

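Values are MAS5 signal intensity, 1 per probe set and array, as the authors deposited them. The submitters' processing notes name MAS5 and no version. They are linear, with a 2% trimmed mean of 100 on every array, so a shift common to most genes would not show. No detection calls were used, and precision is limited by having 3 arrays a group. Of 45101 probe sets, 34945 had 1 symbol. The probe set with the highest mean log2(signal + 12) stood for a gene, and genes with a mean at or above the 40th percentile of probe sets (signal 8.49) were tested. Fold changes are on this scale and are understated for dim genes. Limma 3.58.1 in R 4.3.3 (lmFit, eBayes with intensity trend) was fitted to all 9 arrays and 12347 genes, two-sided, with Benjamini-Hochberg adjustment over all of them. An exact permutation test of 3 against 3 cannot go below 0.1. Results given as limma over probe sets come from the same fit over all probe sets with 1 symbol above the filter.

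The members, lists and tests were chosen with earlier results of these data known. Named genes are Dicer1, each member called, the brightest of each role, members whose probe sets disagree, and the called partner genes of smallest p, at most 4 per comparison. Other members were named for their role after their values were seen. The fit was tested on simulated data. Alternatives changed the pseudocount, filter, normalization, variance prior, arrays in the fit, weights, probe sets and replicate block, and left out each array. Promoters are RefSeq windows of GRCm38.p6. The files name no genome build.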

Additional observations from a re-analysis of the deposited data

How the results depend on the processing

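Calls were counted under 21 alternatives. Without the intensity trend 0 members were higher in null against wild type, and 0 were higher and 3 lower in null against heterozygous. After quantile normalization 8 were lower in null against wild type and 2 higher in null against heterozygous. In null against wild type 1 was higher when only the 2 groups were fitted, and 1 when all probe sets were averaged, where Eif4e turned to -0.027 and, against heterozygous cells, to -0.006 and Eif1ax to 0.265. Leaving out 1 array gave 0 to 2 higher and 4 to 6 lower members in null against wild type, 0 to 1 and 5 to 8 in null against heterozygous, and 0 of either in heterozygous against wild type. Heterozygous against wild type had 0 calls under every alternative. No scaling moved the median of all genes by over 0.1.

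The labels share replicate numbers and do not say whether these pair the samples. Same-numbered arrays correlated at -0.03 to 0.14 in their deviations from group means, over 0.1 in 2 of 9 pairs. Arrays with different numbers correlated at -0.15 to 0.09, over 0.1 in 0 of 18 pairs. Correlations this low cannot settle whether the samples were paired, and the main fit did not pair them. With the replicate number as a block, the counts were 2 higher and 5 lower in null against wild type, 1 and 7 in null against heterozygous, and 0 in heterozygous against wild type. Without the trend Eif2b3, Eif3k and Eif4e did not pass against wild type, nor Eif3f, Eif3k, Eif4a2, Eif4e and Eif5a against heterozygous cells. The same alternatives were run for partner and ribosomal protein genes, a choice made after seeing the data. Without the trend 3 partner genes were higher and 1 lower in null against wild type, and with probe sets averaged 2 and 0. With probe sets averaged, 16 of 46 cytosolic and 11 of 76 mitochondrial ribosomal protein genes fell in null against wild type. In null against heterozygous 14 and 19 fell.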
